A study of Mus musculus with 12 samples.

Results

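The genes described here encode the ligands, receptors, inhibitors and core transducers of the Wnt pathway, measured as polyadenylated RNA in mouse frontal cortex. They were taken by symbol: every Wnt, Fzd, Sfrp and Dkk gene, Dvl1 to Dvl3, Axin1, Axin2, Lrp5, Lrp6, Wif1, Lef1, Tcf7l1, Tcf7l2, Ctnnb1 and Apc. This choice of symbols was made with earlier results of these data known. Of 51 such symbols in the authors' tables, 43 had a tested gene model in at least 1 table and 41 in all 3. They gave 44 of 18417 tested models for GluN1 against WT, 41 of 18430 for GluN1Cre against GluN1 and 43 of 18429 for GluN1Cre against WT.

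The GluN1 mice are the Grin1 knockdown of the series title, the GluN1Cre mice carry Cre in addition to rescue Grin1, and the WT mice are wild type. There were 4 animals per group, 12 in all, and all were males, F1 hybrids of C57Bl/6 and 129/SvlmJ, aged 14 weeks. Every group, WT included, was given tamoxifen for 2 weeks beginning at 10 weeks: a gavage of 6 mg, and chow that supplied about 14 mg more. Tamoxifen is the drug that switches on inducible forms of Cre. The labels used here name neither the Cre driver nor the Grin1 allele, and no group that carries Cre without the knockdown is among the samples, so what Cre alone does and what restored Grin1 does cannot be told apart.

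The authors' tables give 1 FPKM per group, an estimate by Cuffdiff over all libraries of the group that corrects for the length of the transcript and the size of the library. The values below therefore carry no spread between animals, and the read depth behind them is unknown. A model is called changed where p was under 0.05 and q under 0.10 in the authors' test, the threshold of the series' design text. Log2 folds were computed from the FPKM values. In bulk tissue, fewer cells of a type and less RNA per cell cannot be told apart.

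Grin1, the subunit required by every NMDA receptor, stood at 56.7 FPKM in GluN1 cortex against 138 FPKM in WT cortex, at 86.7 FPKM in GluN1Cre cortex against 65.7 FPKM in GluN1 cortex, and at 78.04 FPKM in GluN1Cre cortex against 138 FPKM in WT cortex. Markers of cortical excitatory neurons were plentiful in the libraries: all 10 were tested, with a summed level of 1521 FPKM in GluN1 and 1683 FPKM in WT. Each table has its own assembly and normalisation, and comparisons stay within a table. For the 41 members tested in all tables, the level of a group differed between its tables by a median of 0.651% for WT, 0.583% for GluN1 and 1.48% for GluN1Cre. Axin2 differed most, by 25.7% for GluN1, since it is a model of its own in 1 table and merged with Ccdc46 in the others.

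Wnt ligands are secreted, lipid-modified glycoproteins that bind a Frizzled receptor together with the co-receptor Lrp5 or Lrp6. Dishevelled proteins then restrain the complex of Axin and Apc that marks beta-catenin (Ctnnb1) for degradation, and beta-catenin enters the nucleus to act with Tcf and Lef proteins. Secreted frizzled-related proteins, Wif1 and some of the Dickkopf proteins block ligands or co-receptors outside the cell. In the forebrain the pathway is known for its part in synapse formation, hippocampal neurogenesis and the blood-brain barrier, and in cultured rodent neurons NMDA receptor activity is known to promote the synthesis or release of several Wnt ligands.

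In GluN1 cortex 2 of the 44 tested Wnt models changed (2.52% of all tested models were called), and both encode secreted proteins of the inhibitor families. Wif1, a secreted protein that binds Wnt ligands, rose to 1.88 times its WT level. Dkkl1, a secreted relative of the Dickkopf proteins, fell to 70.0% of its WT level. With p taken from the deposited test statistic, read as a normal deviate, 0 members were called. That reading left 41 calls over all tested models, against 464, so its 0 is not particular to the members. With q taken over models that averaged 1 FPKM or more, 1 member was called, Dkkl1. No ligand, receptor, cytoplasmic transducer or nuclear factor was called. In the comparisons of GluN1Cre with GluN1 and with WT, 0 of 41 and 0 of 43 Wnt models were called by Cuffdiff, where 0.689% and 0.841% of all tested models were.

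The promoters of Wif1 and Dkkl1 are printed because these are the members that were called, and that of Wnt3 because it came nearest to a call in GluN1Cre cortex and holds a match to the Tcf/Lef motif. Each runs 5′ to 3′ on the gene's strand from 250 bases before to 50 bases after the start site in RefSeq, build GRCm38.p6. The capitals mark the 50 bases after that start site. GENCODE M21 starts all 3 genes further upstream. It starts Dkkl1 at 45212147, so the whole Dkkl1 window lies inside the GENCODE gene and the bases before that start were not searched. It starts Wif1 at 121033960 and Wnt3 at 103774150, against 121034004 and 103774175 in RefSeq. Wif1 lies at chr10:121033754-121034053 on the plus strand, Dkkl1 at chr7:45211834-45212133 on the minus strand and Wnt3 at chr11:103773925-103774224 on the plus strand.
Wif1: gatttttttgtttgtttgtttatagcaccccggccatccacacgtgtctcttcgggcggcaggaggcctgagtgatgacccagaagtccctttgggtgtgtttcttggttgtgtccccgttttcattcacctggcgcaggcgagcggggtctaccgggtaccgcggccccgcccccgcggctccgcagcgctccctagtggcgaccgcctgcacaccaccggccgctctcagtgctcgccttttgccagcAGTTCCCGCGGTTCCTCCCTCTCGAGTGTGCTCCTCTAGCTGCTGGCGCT
Dkkl1: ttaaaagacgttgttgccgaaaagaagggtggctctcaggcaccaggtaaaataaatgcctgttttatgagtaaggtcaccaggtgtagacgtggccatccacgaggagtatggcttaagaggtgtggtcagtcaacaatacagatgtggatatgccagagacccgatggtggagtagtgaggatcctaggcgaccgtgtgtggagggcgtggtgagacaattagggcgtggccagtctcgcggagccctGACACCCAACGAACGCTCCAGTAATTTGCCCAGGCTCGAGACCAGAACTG
Wnt3: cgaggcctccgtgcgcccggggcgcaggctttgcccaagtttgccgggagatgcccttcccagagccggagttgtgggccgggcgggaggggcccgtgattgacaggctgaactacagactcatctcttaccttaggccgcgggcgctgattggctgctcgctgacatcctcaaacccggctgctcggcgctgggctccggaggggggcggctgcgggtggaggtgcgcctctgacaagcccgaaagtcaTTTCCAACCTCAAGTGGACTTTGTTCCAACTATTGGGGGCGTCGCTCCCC
The Tcf/Lef motif was searched on both strands as CTTTGAA, as the variant CTTTGAT, as the variant CTTTGTA and as the variant CTTTGTT. Wnt3 held 1 match, CTTTGTT, starting at base 19 counted from the RefSeq start site, and no match occurred in the Wif1 or Dkkl1 window. Among all 32851 promoters of this length 16.9% held a match. The set of RefSeq promoters used here held 36 promoters for 29 of the 43 tested members, and 5 of these held a match (13.9%). They belong to Fzd7, Lef1, Tcf7l2, Wnt3 and Wnt5b. For Lef1, Tcf7l2 and Wnt5b the match lies at a downstream alternative start, and the promoters of their other starts held none. Members absent from the set, among them Wnt7b, Fzd3, Dkk3 and Apc, were not searched. The cAMP response element TGACGTCA occurred in 1 of these 36 promoters, that of Dvl1, and in 1.79% of all promoters. The member promoters had a median GC content of 68.7% against 52.7% over all promoters. Wif1 at 63% GC lay nearer to the members' median than Dkkl1 at 53%.

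**Figure D1:**
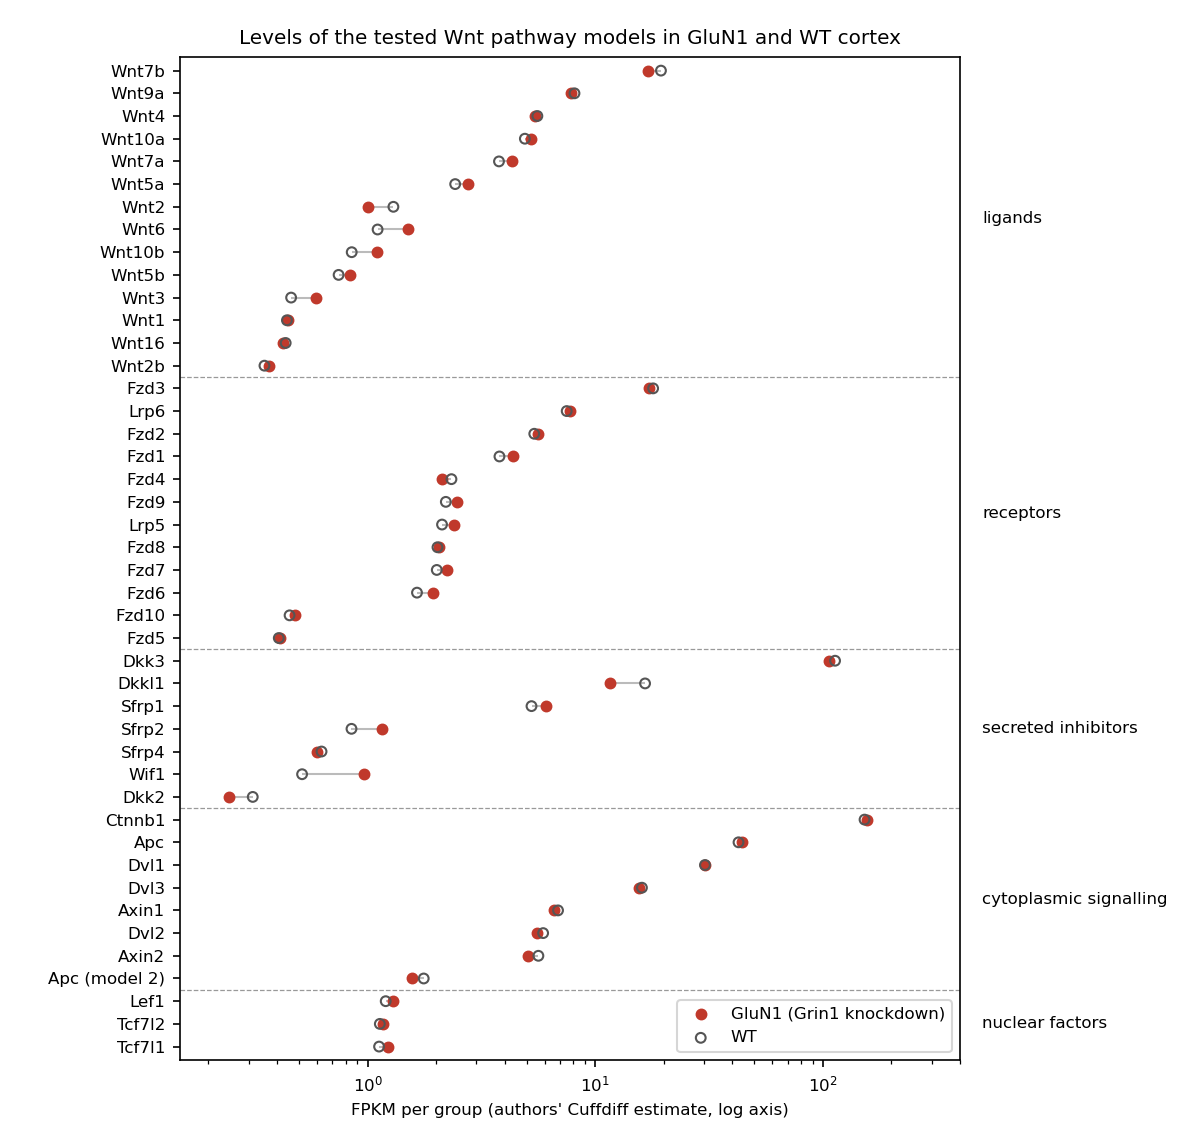
FPKM of each tested Wnt pathway model in GluN1 cortex (filled red) and WT cortex (open grey) on a log axis, ordered by WT level within each role; each point is 1 value for a group of 4 animals and has no error bar. Wif1 and Dkkl1 show the called separations, at 0.969 against 0.516 FPKM and 11.6 against 16.5 FPKM, while Ctnnb1 and the Dvl genes nearly coincide.

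The group of secreted inhibitor families held both calls. Dkkl1 is counted in it by family, and whether it inhibits Wnt signals was not tested. Wif1 had 0.969 FPKM in GluN1 cortex against 0.516 FPKM in WT cortex, 0.695 FPKM in GluN1Cre cortex against 0.970 FPKM in GluN1 cortex, and 0.690 FPKM in GluN1Cre cortex against 0.517 FPKM in WT cortex. The GluN1Cre level was thus below GluN1 in the table of those groups and above WT in the other. The log2 fold of Wif1 was 0.91 for GluN1 against WT (p = 0.0001, q = 0.00833 in the authors' deposited table). It was -0.48 for GluN1Cre against GluN1 and 0.42 for GluN1Cre against WT, neither called (q = 0.741 and q = 0.9999 in the authors' deposited tables). Wif1 is a low-level transcript: its WT value exceeded that of 14.9% of tested models, and its GluN1 value that of 23.8%. GENCODE M21 places it on chromosome 10 from 121033960 to 121100650 on the plus strand (protein coding, GRCm38).

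Dkkl1 had 11.6 FPKM in GluN1 cortex against 16.5 FPKM in WT cortex, 13.8 FPKM in GluN1Cre cortex against 12.2 FPKM in GluN1 cortex, and 13.9 FPKM in GluN1Cre cortex against 17.3 FPKM in WT cortex. The GluN1Cre level was thus above GluN1 in the table of those groups and below WT in the other. The log2 fold was -0.51 for GluN1 against WT (p = 5e-05, the smallest in the authors' deposited table, and q = 0.00456). For GluN1Cre against GluN1 it was 0.18 (q = 0.9999 in the authors' deposited table) and for GluN1Cre against WT -0.31 (p = 0.0103, q = 0.552 in the authors' deposited table). Whether the GluN1Cre group differed from either of the others in Wif1 or Dkkl1 was not established at this threshold, and the groups are shared between the comparisons. Dkkl1 lies on chromosome 7 from 45207519 to 45212147 on the minus strand in GENCODE M21 (protein coding), and the locus the authors assembled reached 823 bases upstream of the RefSeq start site.

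The other members of the secreted inhibitor group were not called. Dkk3, a divergent Dickkopf family member and the most abundant secreted Wnt gene here, had 107 FPKM in GluN1 cortex against 113 FPKM in WT cortex, 121 FPKM in GluN1Cre cortex against 107 FPKM in GluN1 cortex, and 121 FPKM in GluN1Cre cortex against 114 FPKM in WT cortex. Its largest log2 fold was 0.18, for GluN1Cre against GluN1 (p = 0.0209, q = 0.839 in the authors' deposited table). Sfrp1, which binds Wnt ligands through a Frizzled-like domain, had 6.08 FPKM in GluN1 against 5.25 FPKM in WT, 6.61 FPKM in GluN1Cre against 6.10 FPKM in GluN1, and 6.52 FPKM in GluN1Cre against 5.24 FPKM in WT. The GluN1Cre level was thus above GluN1 and above WT in their tables, with a log2 fold of 0.31 over WT (p = 0.0013, q = 0.137 in the authors' deposited table).

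Sfrp2, of the same family, had 1.16 FPKM in GluN1 against 0.850 FPKM in WT, 0.891 FPKM in GluN1Cre against 1.21 FPKM in GluN1, and 0.876 FPKM in GluN1Cre against 0.924 FPKM in WT. Its log2 folds were 0.45, -0.45 and -0.08 in that order (q = 0.553, q = 0.9999 and q = 0.9999 in the authors' deposited tables). Sfrp4 stayed between 0.590 and 0.628 FPKM in all groups and tables. Dkk2, an antagonist of Lrp5 and Lrp6, was the lowest tested member, with 0.245 FPKM in GluN1 against 0.313 FPKM in WT and 0.297 FPKM in GluN1Cre against 0.246 FPKM in GluN1.

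**Figure D2:**
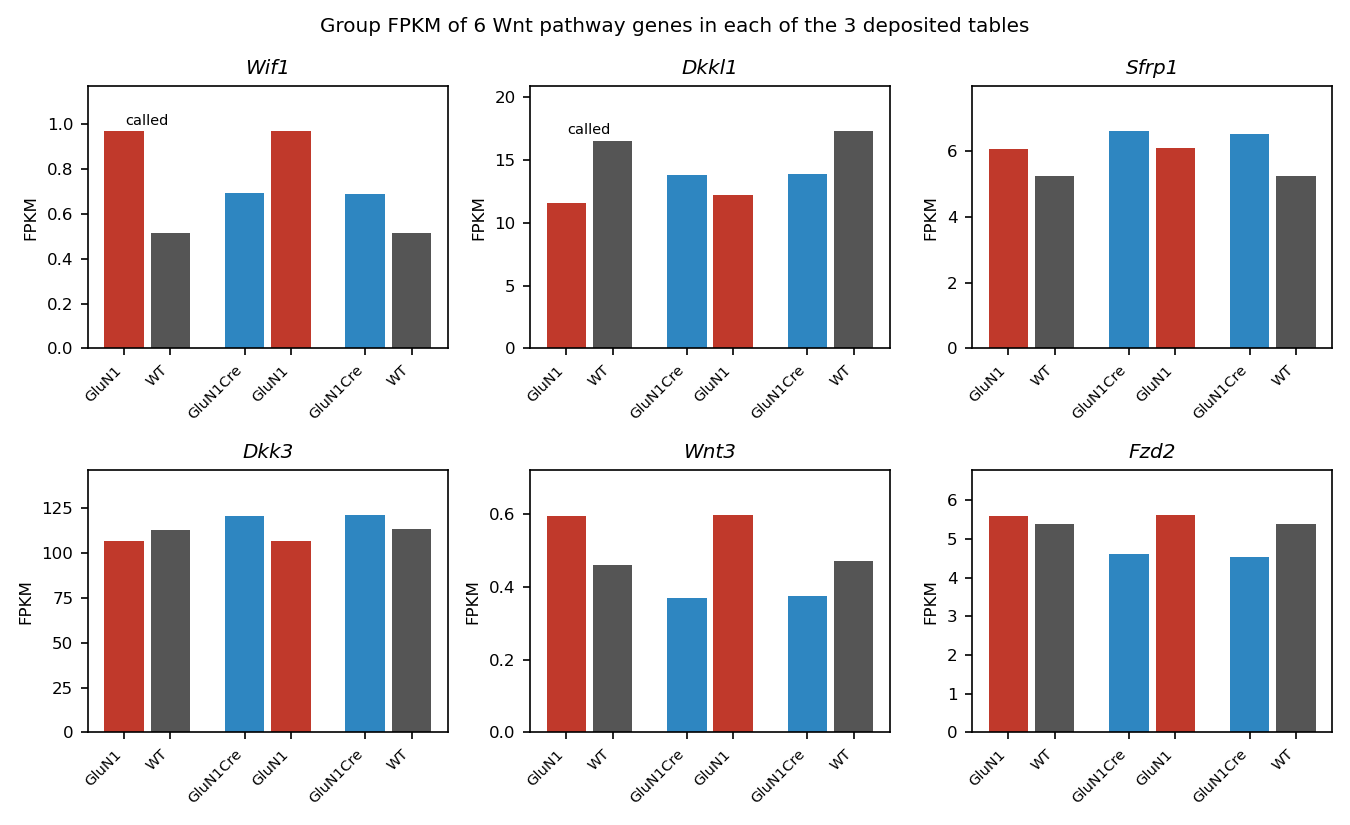
Group FPKM of Wif1, Dkkl1, Sfrp1, Dkk3, Wnt3 and Fzd2 in each deposited table, as bars from 0 with GluN1 in red, GluN1Cre in blue and WT in grey; each bar is 1 value for 4 animals and carries no error bar. Wif1 and Dkkl1 were called for GluN1 against WT, and Wnt3 had 0.369 FPKM in GluN1Cre against 0.598 FPKM in GluN1 without being called.

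Of the 14 tested ligands in GluN1 against WT, 0 were called, beside 2.52% of all tested models. Their log2 folds were positive for 9 and negative for 5, beside 8989 positive and 9420 negative over all tested models. Their median was 0.08 against -0.00 for all tested models. Their summed level was 48.8 FPKM in GluN1 and 49.9 FPKM in WT. Wnt7b, known for its part in dendrite growth and brain vessel formation, led them with 17.0 FPKM in GluN1 against 19.4 FPKM in WT, 17.5 FPKM in GluN1Cre against 17.0 FPKM in GluN1, and 17.4 FPKM in GluN1Cre against 19.5 FPKM in WT. Its log2 fold was -0.20 for GluN1 against WT (p = 0.0315, q = 0.497 in the authors' deposited table) and -0.17 for GluN1Cre against WT (p = 0.0668, q = 0.9999 in the authors' deposited table). The next levels were those of Wnt9a, with 7.83 FPKM in GluN1 and 8.11 FPKM in WT, Wnt4, with 5.44 and 5.57 FPKM in GluN1 and WT, and Wnt10a, with 5.24 and 4.91 FPKM in GluN1 and WT.

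Wnt7a, which acts with Wnt7b on brain endothelium, had 4.31 FPKM in GluN1 and 3.78 FPKM in WT, and Wnt5a, a ligand that mostly signals without beta-catenin, had 2.76 FPKM in GluN1 and 2.43 FPKM in WT. Wnt2, a ligand known in rodent neurons as a target of activity and CREB, had 1.004 FPKM in GluN1 against 1.298 FPKM in WT, 1.22 FPKM in GluN1Cre against 1.01 FPKM in GluN1, and 1.20 FPKM in GluN1Cre against 1.28 FPKM in WT. Its log2 fold of -0.37 for GluN1 against WT had p = 0.0458 and q = 0.601 in the authors' deposited table. Wnt6 had 1.51 FPKM in GluN1 against 1.11 FPKM in WT, the largest positive fold of a tested ligand in that table at 0.45 on the log2 scale (p = 0.0245, q = 0.428 in the authors' deposited table).

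Wnt3, a ligand of the beta-catenin branch, had 0.595 FPKM in GluN1 against 0.461 FPKM in WT, 0.369 FPKM in GluN1Cre against 0.598 FPKM in GluN1, and 0.375 FPKM in GluN1Cre against 0.470 FPKM in WT. The GluN1Cre level was below GluN1 and below WT in their tables. The log2 fold of -0.70 for GluN1Cre against GluN1 was the largest in absolute size of any tested member model in that table and was not called (p = 0.0009, q = 0.127 in the authors' deposited table). Wnt10b had 1.095 FPKM in GluN1 and 0.852 FPKM in WT, and Wnt5b had 0.837 FPKM in GluN1 and 0.746 FPKM in WT. Wnt1, Wnt16 and Wnt2b, the lowest tested ligands, lay between 0.369 and 0.446 FPKM in GluN1 and between 0.352 and 0.442 FPKM in WT. Wnt1 was tested in the comparisons with WT only, and it shares its assembled locus with Wnt10b, so the split of reads between these ligands is uncertain. The assembled loci of Wnt2b, Wnt5b and Fzd4 likewise reached over other protein-coding genes, and those of Ctnnb1, Dvl1 and Dvl2 overlap Ulk4, Tas1r3 and Acadvl. In GluN1Cre cortex 5 of 13 ligand folds were positive and 8 negative against GluN1, and 7 were positive and 7 negative against WT.

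**Figure D3:**
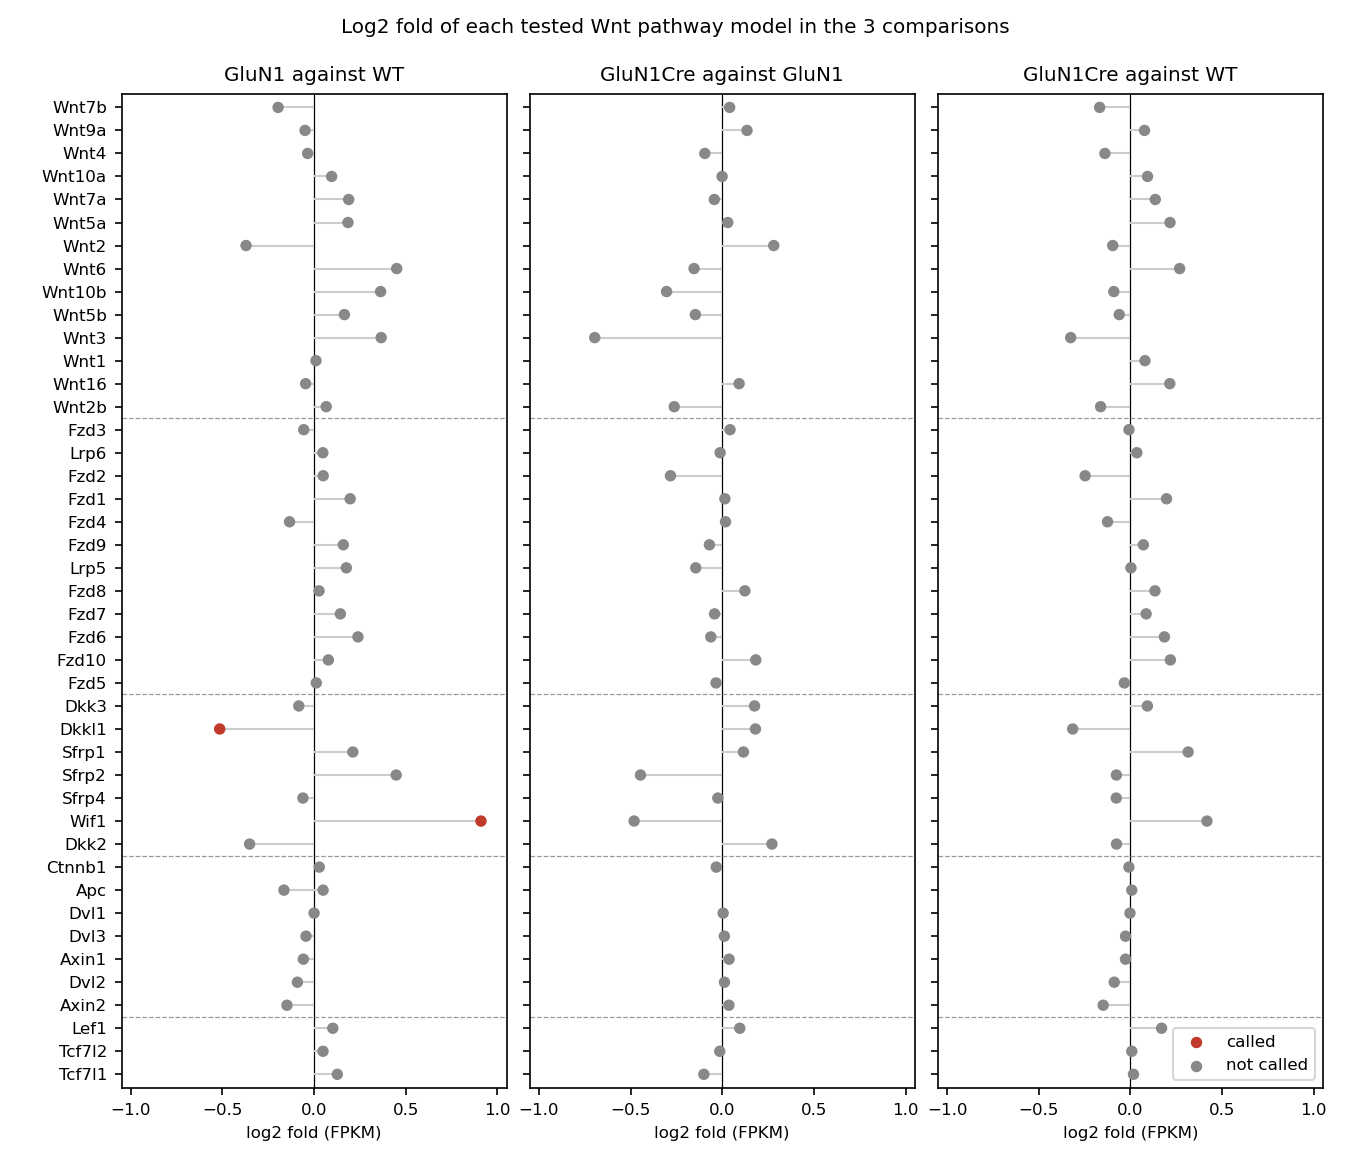
Log2 fold of the group FPKM of each tested Wnt pathway model, in 1 panel per comparison with the same axis; red points were called and grey points were not, and dashed lines part ligands, receptors, secreted inhibitors, cytoplasmic transducers and nuclear factors. The called points are Wif1 at 0.91 and Dkkl1 at -0.51 for GluN1 against WT, and the other panels hold 0 called points.

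All 10 Frizzled receptors and both co-receptors were tested in each of the tables, and 0 were called by Cuffdiff. Of all tested models 2.52%, 0.689% and 0.841% were called in the order of the comparisons, so few calls are to be looked for among 12. For GluN1 against WT, 10 of the 12 receptor folds were positive, beside 8989 positive and 9420 negative folds over all tested models. The receptor folds had a median of 0.06 and a range of -0.13 to 0.24 on the log2 scale. The receptors summed to 49.1 FPKM in GluN1 and 47.9 FPKM in WT. Fzd3, a Frizzled known for axon guidance, was the most abundant, with 17.3 FPKM in GluN1 against 18.0 FPKM in WT, 17.8 FPKM in GluN1Cre against 17.3 FPKM in GluN1, and 17.6 FPKM in GluN1Cre against 17.7 FPKM in WT. Lrp6 followed with 7.74 FPKM in GluN1 and 7.49 FPKM in WT, above Lrp5 at 2.40 FPKM in GluN1 and 2.12 FPKM in WT.

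Fzd2 had 5.59 FPKM in GluN1 against 5.397 FPKM in WT, 4.62 FPKM in GluN1Cre against 5.62 FPKM in GluN1, and 4.54 FPKM in GluN1Cre against 5.39 FPKM in WT. The GluN1Cre level was below GluN1 and below WT in their tables, with a log2 fold of -0.28 against GluN1 (p = 0.0103, q = 0.596 in the authors' deposited table) and of -0.25 against WT (p = 0.0327, q = 0.9999 in the authors' deposited table). The largest fold of a tested receptor model for GluN1 against WT was that of Fzd6, with 1.95 FPKM in GluN1 and 1.65 FPKM in WT (p = 0.0718, q = 0.737 in the authors' deposited table). Fzd1 had 4.35 FPKM in GluN1 and 3.80 FPKM in WT, and 4.35 FPKM in GluN1Cre and 3.80 FPKM in WT in the table of those groups. Fzd4, the receptor of norrin in vessels, had 2.13 FPKM in GluN1 and 2.34 FPKM in WT. Fzd7, Fzd8 and Fzd9 lay between 2.07 and 2.46 FPKM in GluN1 and between 2.01 and 2.21 FPKM in WT. Fzd10 and Fzd5 were the lowest receptors, at 0.480 and 0.411 FPKM in GluN1 and at 0.454 and 0.407 FPKM in WT.

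The cytoplasmic transducers held several of the highest levels of the pathway. For GluN1 against WT their median absolute log2 fold was 0.05, beside 0.08 for all tested models. It was 0.35 for the secreted inhibitors, 0.18 for the ligands and 0.11 for the receptors. These groups differ in level. All 8 cytoplasmic models averaged 1 FPKM or more, against 4 of 7 inhibitors, 8 of 14 ligands and 10 of 12 receptors. The inhibitor median is the fold of Dkk2, the lowest tested member. Ctnnb1, which encodes beta-catenin, had 155 FPKM in GluN1 against 152 FPKM in WT, 153 FPKM in GluN1Cre against 156 FPKM in GluN1, and 151 FPKM in GluN1Cre against 152 FPKM in WT, with log2 folds of 0.03, -0.03 and -0.01. Its level exceeded that of 98.1% of tested models in GluN1 and in WT. Dvl1, the most abundant Dishevelled, had 30.3 FPKM in GluN1 and in WT, 30.7 FPKM in GluN1Cre against 30.6 FPKM in GluN1, and 30.3 FPKM in GluN1Cre against 30.4 FPKM in WT. Dvl3 had 15.6 FPKM in GluN1 against 16.03 FPKM in WT, 15.3 FPKM in GluN1Cre against 15.2 FPKM in GluN1, and 14.3 FPKM in GluN1Cre against 14.6 FPKM in WT. Dvl2 had 5.54 FPKM in GluN1 and 5.90 FPKM in WT.

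Of the destruction complex, the main Apc model had 44.1 FPKM in GluN1 against 42.6 FPKM in WT and 42.9 FPKM in GluN1Cre against 42.7 FPKM in WT. A further Apc model had 1.57 FPKM in GluN1 and 1.76 FPKM in WT. Cuffdiff marked both Apc models as failed for GluN1Cre against GluN1, where they are listed at 43.8 and 1.08 FPKM in GluN1Cre and at 45.3 and 0.786 FPKM in GluN1 with no test. Axin1 had 6.59 FPKM in GluN1 and 6.86 FPKM in WT. Axin2, an Axin that is itself a widely used target gene of beta-catenin signalling, had 5.08 FPKM in GluN1 against 5.63 FPKM in WT. The model merged with Ccdc46 had 6.55 FPKM in GluN1Cre against 6.38 FPKM in GluN1 and 6.30 FPKM in GluN1Cre against 6.98 FPKM in WT. The Axin2 log2 folds of -0.15, 0.04 and -0.15 were not called (p = 0.178, p = 0.727 and p = 0.199 in the authors' deposited tables). All 7 cytoplasmic folds of GluN1Cre against WT lay between -0.15 and 0.01.

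The nuclear factors were low and close between the groups. Lef1 had 1.29 FPKM in GluN1 and 1.20 FPKM in WT, and 1.45 FPKM in GluN1Cre and 1.29 FPKM in WT. Tcf7l2 had 1.17 FPKM in GluN1 and 1.13 FPKM in WT, and Tcf7l1 had 1.23 FPKM in GluN1 and 1.12 FPKM in WT. Their 3 log2 folds for GluN1 against WT ran from 0.05 to 0.13.

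The 2 calls among 44 models for GluN1 against WT stand beside 464 calls among 18417 models (2.52%), and the member called higher and the member called lower beside 1.66% of all models called higher and 0.858% called lower. The 0 calls for GluN1Cre against GluN1 stand beside 127 calls (0.689%; 0.13% of models called higher and 0.559% called lower). The 0 calls for GluN1Cre against WT stand beside 155 (0.841%; 0.364% higher and 0.478% lower). At an unadjusted p under 0.05 there were 7 of 44 members (15.9%) for GluN1 against WT, beside 7.91% of all models. These were Dkkl1, Sfrp1, Sfrp2, Wif1, Wnt2, Wnt6 and Wnt7b. For GluN1Cre against GluN1 there were 5 of 41 (12.2%, beside 4.19% of all models), namely Dkk3, Fzd2, Sfrp2, Wif1 and Wnt3. For GluN1Cre against WT there were 3 of 43 (6.98%, beside 4.32%), namely Dkkl1, Fzd2 and Sfrp1. Of these 3 sets, secreted inhibitors supplied 4, 3 and 2 members. The median log2 fold of the members was 0.05, -0.00 and 0.00 in the order of the comparisons, against -0.00, -0.01 and -0.01 for all tested models. The median absolute fold of the members was 0.11, 0.09 and 0.09, against 0.08, 0.07 and 0.07 for all tested models.

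The 8 remaining symbols had no tested model in any table: Wnt3a, Wnt8a, Wnt8b, Wnt9b, Wnt11, Dkk1, Dkk4 and Sfrp5. Of these, Wnt9b had 0.160 FPKM in GluN1 against 0.0810 FPKM in WT and 0.199 FPKM in GluN1Cre against 0.0823 FPKM in WT, and Wnt11 had 0.128 FPKM in GluN1 against 0.0636 FPKM in WT. Dkk1, an inducible antagonist of Lrp5 and Lrp6, had 0.00741 FPKM in GluN1 and 0.00363 FPKM in WT. Wnt3a, the ligand most used to switch on the pathway in culture, was listed at 0.0157 FPKM in GluN1 and at 0 in WT.

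Other genes of the pathway were taken from 8 lists by role. Of 68 such models 3 rose and 0 fell in GluN1 against WT, beside 1.66% of all tested models called higher and 0.858% called lower, and their median log2 fold was 0.01. They were Lgr5 and Lgr6, receptors of R-spondins that amplify Wnt signals, and Bambi, a pseudoreceptor of the TGF-beta family that is also a beta-catenin target. Lgr5 had 6.05 FPKM in GluN1 against 2.62 FPKM in WT, 4.14 FPKM in GluN1Cre against 5.90 FPKM in GluN1, and 4.24 FPKM in GluN1Cre against 2.48 FPKM in WT, and it was called in each (q = 0.00456, q = 0.0118 and q = 0.0098 in the authors' deposited tables). Lgr6 had 3.87 FPKM in GluN1 against 1.58 FPKM in WT, 2.73 FPKM in GluN1Cre against 3.88 FPKM in GluN1, and 2.68 FPKM in GluN1Cre against 1.59 FPKM in WT, with the same q-values in the authors' deposited tables. Bambi had 0.747 FPKM in GluN1 against 0.517 FPKM in WT (q = 0.0745 in the authors' deposited table).

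In GluN1Cre against GluN1, Lgr5 and Lgr6 were the 2 of 72 other pathway models that fell and 0 rose, beside 0.559% of all tested models called lower and 0.13% called higher. In GluN1Cre against WT they were the 2 of 69 that rose and 0 fell, beside 0.364% called higher and 0.478% called lower. Among 13 models of Wnt target genes, Lgr5 and Bambi rose in GluN1 against WT, beside 1.66% of all tested models called higher. The other 11 were not called, and the list median was 0.17 against -0.00 for all tested models. Lgr5, Nkd1, Notum, Rnf43, Znrf3, Tcf7, Apcdd1 and Tnfrsf19 are also on other lists. Axin2, a target gene counted among the members, is not on the target list and had a log2 fold of -0.15 for GluN1 against WT. The lists of the destruction complex (16 models), nuclear partners (13), planar polarity (9), R-spondins (3), ligand secretion (3) and other inhibitors (9) had 0 calls by Cuffdiff in that comparison, beside 2.52% of all tested models. At an unadjusted p under 0.05 in the authors' deposited table they held Tle4, a co-repressor, with 11.6 FPKM in GluN1 against 13.3 FPKM in WT (p = 0.0242), and Cthrc1, a secreted Wnt cofactor, with 4.36 FPKM in GluN1 against 3.23 FPKM in WT (p = 0.0209).

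Markers of other cells and regions moved in the same libraries, and their lists were chosen with earlier results of these data known. Of all tested models, 1.66% were called higher and 0.858% lower in GluN1 against WT. The shares were 0.13% and 0.559% in GluN1Cre against GluN1, and 0.364% and 0.478% in GluN1Cre against WT. In GluN1 against WT, 9 of 10 olfactory bulb marker models rose, and the list summed to 112 FPKM in GluN1 and 40.8 FPKM in WT. S100a5, Tbx21, Shisa3 and Eomes led it with log2 folds of 2.63, 2.58, 2.30 and 2.19. In GluN1Cre against GluN1, 9 of 10 fell, at 67.0 FPKM in GluN1Cre and 111 FPKM in GluN1. In GluN1Cre against WT 8 of 9 rose, at 66.1 FPKM in GluN1Cre and 40.8 FPKM in WT. The Wif1, Lgr5 and Lgr6 levels had the same order of groups as these sums. Uncalled members had it too, among them Wnt6, Wnt7a, Fzd6, Fzd7, Fzd9, Lrp5, Lrp6 and Tcf7l1, so the order is not particular to the called genes. The summed neuroblast, meningeal and endothelial markers also had that order, the endothelial sums being 146 FPKM in GluN1 against 126 FPKM in WT, 134 FPKM in GluN1Cre against 147 FPKM in GluN1, and 152 FPKM in GluN1Cre against 141 FPKM in WT. The meningeal sums rest mostly on 1 level: the highest was 825 of 893 FPKM in GluN1 and 670 of 724 FPKM in WT. The median log2 folds of that list were 0.36, -0.13 and 0.15 in the order of the comparisons. The summed cortical excitatory markers, with 1521 FPKM in GluN1 against 1683 FPKM in WT, 1601 FPKM in GluN1Cre against 1532 FPKM in GluN1 and 1587 FPKM in GluN1Cre against 1689 FPKM in WT, had the order of the Dkkl1 levels. The uncalled Wnt7b, Wnt2, Dkk2, Fzd3 and Axin2 also had the order of the Dkkl1 levels. The highest cortical excitatory level was 730 FPKM in GluN1 and 848 FPKM in WT. The median log2 folds of the cortical excitatory list were -0.13, 0.09 and -0.03 in the order of the comparisons. Of that list 1 model in 10 was called for GluN1 against WT, Fezf2, which fell to 9.40 FPKM in GluN1 against 12.6 FPKM in WT.

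The counts of the other marker lists likewise stand beside 1.66% of all tested models called higher and 0.858% called lower in GluN1 against WT. Of 14 meningeal and fibroblast models 6 rose in that comparison, with sums of 893 FPKM in GluN1 and 724 FPKM in WT and Islr, Aldh1a2, Ptgds and Col3a1 among them. In addition, 4 of 8 neuroblast models rose, namely Cd24a, Dlx2, Dcx and Dlx1, with sums of 47.4 FPKM in GluN1 and 33.3 FPKM in WT. Of 12 striatal models 6 fell, with sums of 185 FPKM in GluN1 and 217 FPKM in WT and Adora2a, Drd1a and Scn4b among them. Astrocyte markers rose in 2 of 10 models, Gfap and Aqp4, at 1105 FPKM in GluN1 and 1011 FPKM in WT, and 0 of 10 endothelial models were called. The oligodendrocyte, microglia, thalamic and choroid plexus lists held 0 calls by Cuffdiff in that comparison. In GluN1Cre against WT 8 of 11 striatal models fell, with sums of 165 FPKM in GluN1Cre and 221 FPKM in WT. Gfap and Dcx were the astrocyte and neuroblast models that rose, and 0 of 13 meningeal models were called. Of all tested models 0.364% were called higher and 0.478% lower there. In GluN1Cre against GluN1, Gfap, Gjb6, Dlx2, Slc2a1 and Penk were the called markers outside the olfactory bulb list, and all 5 fell. Of all tested models 0.13% were called higher and 0.559% lower there. None of the markers in the tables was listed at 0 in both groups. The part of these markers in the Wif1 and Dkkl1 results was not tested.

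**Figure D4:**
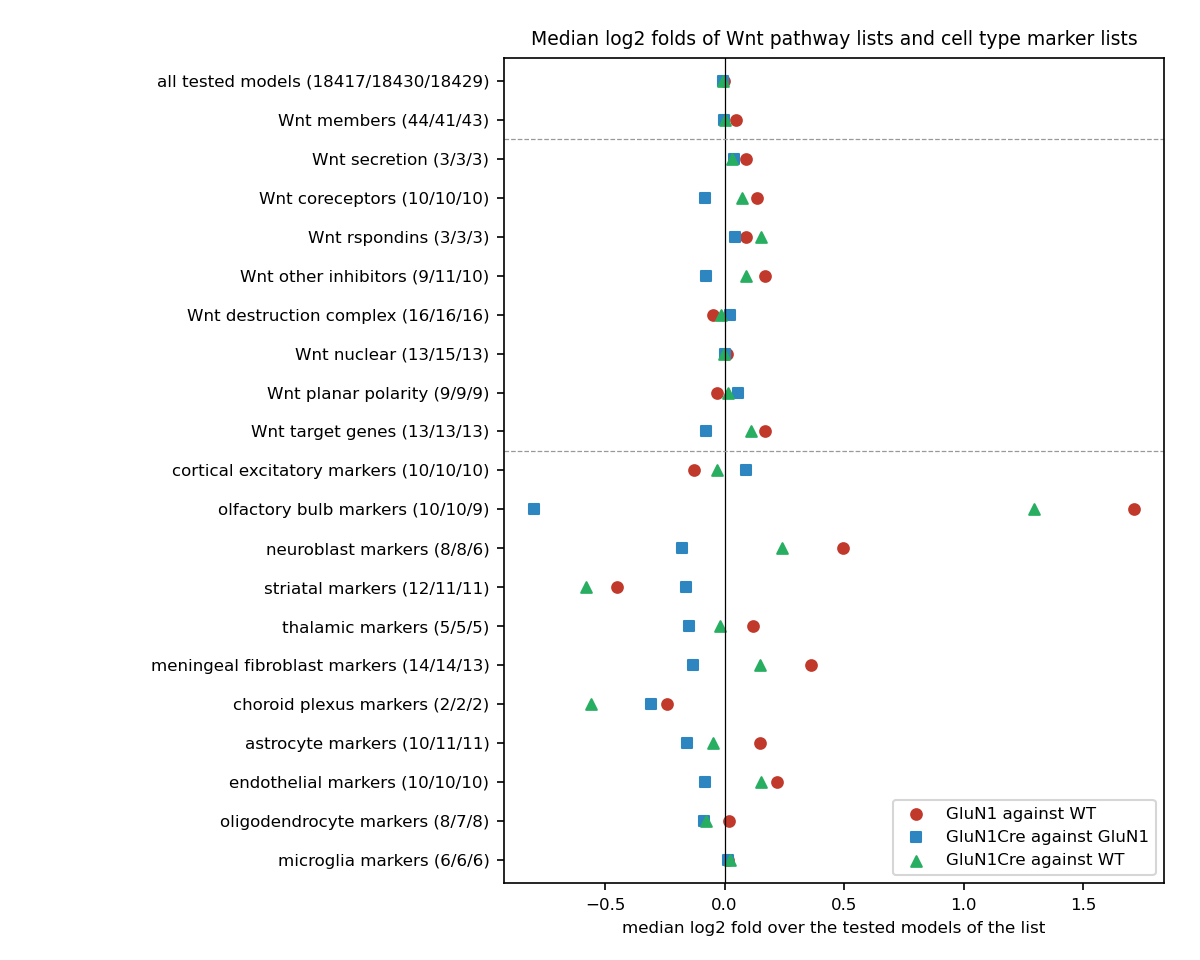
Median log2 fold over the tested models of each list, with the number of models in the 3 comparisons in brackets; red circles are GluN1 against WT, blue squares GluN1Cre against GluN1 and green triangles GluN1Cre against WT. The Wnt members sit at 0.05, -0.00 and 0.00, while the olfactory bulb markers sit at 1.71, -0.80 and 1.29.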

How the data were processed

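RNA was isolated with Tri Reagent from frozen frontal cortex and polyadenylated RNA was sequenced, per the labels' protocols. Cuffdiff 2.2.1.3, Cufflinks 2.2.1.0, TopHat2 2.1.0 and FastQC 0.65 are listed, without roles, per the submitters' processing notes, with the builds GRCm38 and mm10. The authors deposited 3 tables from Cuffdiff with 1 FPKM per group and gene model. Per the file headers, the same tables hold the authors' test statistic, a score without a fixed range, p-value and q-value. The table headers write NR1 and NR1Cre for GluN1 and GluN1Cre, which the list of tables in the labels of each sample bears out.

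Members and gene lists were chosen with earlier results of these data known. Log2 folds were recomputed from FPKM with no pseudocount and no filter (Python 3.11.15, pandas 2.3.3, numpy 2.4.6, scipy 1.17.1); the code was tested on simulated data. Recomputed Benjamini-Hochberg values over tested models differed from deposited q-values by at most 5.14e-07. Named genes were all members, Grin1 and up to 4 called genes of each list, by smallest q and then largest absolute fold; Tle4, Cthrc1 and the untested members with values were chosen after their values were seen, and 1 gene that the rule names is not reported here. Gene positions are from GENCODE M21 and promoters from RefSeq. Values per animal are not in the tables used here, and no spread, depth, left-out animal or paired fit was computed.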

Additional observations from a re-analysis of the deposited data

How the results depend on the processing

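The counts of called Wnt models for GluN1 against WT, 2 in the main analysis, depended on the p-values used. With q recomputed over the models that averaged 1 FPKM or more, 1 member was called (378 models in all, against 464), because Wif1 lies below that level. With p taken from the deposited test statistic, read as a normal deviate, 0 were called (41 models in all, against 464). Whether that reading suits the statistic was not tested. At q under 0.05 and with single-symbol models only, 2 were called. In the comparisons of GluN1Cre with GluN1 and with WT, 0 members were called under each of these alternatives. With p from the statistic, 15 and 18 models were called in all, against 127 and 155. Member medians moved by less than 0.1 on the log2 scale under every alternative run. With log2(FPKM + 1) 0 of 128 member folds changed sign. With folds centred on the median of all models 4 uncalled folds changed sign, to 0.0035 for Wnt10a (GluN1Cre against GluN1) and, for GluN1Cre against WT, to 0.0036 for Fzd3, 0.0089 for Dvl1 and 0.0031 for Ctnnb1. With FPKM summed over the models of a gene 3 did, to 0.041 for the lesser Apc model and -0.0052 for Wnt5b (GluN1 against WT) and to 0.0030 for Wnt10a (GluN1Cre against GluN1). No paired analysis was possible because the tables hold 1 value per group, and leaving out an animal was not possible for the same reason. Read depth is unknown, which limits what can be said of members below 1 FPKM.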

Other observations

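Of the tested ligands, several lie beside another Wnt gene. Wnt6 and Wnt10a follow each other on the plus strand of chromosome 1, 6193 bases apart in GENCODE M21, and had log2 folds of 0.45 and 0.10 for GluN1 against WT, neither called. Wnt10b and Wnt1, on opposite strands of chromosome 15 and 11706 bases apart, had log2 folds of 0.36 and 0.01 in that comparison, neither called. Wnt3, 24328 bases from the untested Wnt9b on chromosome 11, had 0.369 FPKM in GluN1Cre and 0.598 FPKM in GluN1, while Wnt9b had 0.201 FPKM in GluN1Cre and 0.160 FPKM in GluN1. Adding the folds of GluN1 against WT and GluN1Cre against GluN1 gave that of GluN1Cre against WT to within 0.1 on the log2 scale for all but 2 of the 41 members tested in all tables, Wnt10b and Wnt16.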
